A study of Mus musculus with 12 samples.

Results

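The conserved oligomeric Golgi (COG) complex was described through its 8 subunit genes, Cog1 to Cog8, taken by symbol from 3 deposited tables. All 8 were among the 15191 genes of the gene table. They held 162 of the 156805 exon bins of the exon table and 1 of the 143 sites of the editing table, an isoleucine-to-valine site in Cog3. The series measured total RNA of the frontal cortex of male C57BL/6 mice in 6 Adar2-/- Gria2R/R libraries and 6 Adar2+/+ Gria2R/R libraries from litter mates. Both groups carried the Gria2R allele, an AMPA receptor subunit gene in which the Q/R codon that ADAR2 normally edits already specifies arginine in the DNA. The labels give no age. The question put by the series was whether loss of ADAR2 alters editing, mRNA levels or splicing in vivo. The files give the authors' value per genotype or condition, so no value per library, SD or depth can be shown. The p-values are the authors' own, and for the editing table no source used here says whether they include the spread between libraries or cover the counting of reads only.

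The COG complex tethers transport vesicles that return Golgi enzymes to earlier cisternae before the vesicles fuse. Its subunits form lobe A (Cog1 to Cog4) and lobe B (Cog5 to Cog8), and inherited mutations in several human subunit genes cause disorders of protein glycosylation, often with neurological signs. ADAR2, the product of Adarb1, converts adenosine to inosine in double-stranded RNA. Inosine is read as guanosine, so that an edited isoleucine codon, whose first base is adenosine, is read as a valine codon.

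The tissue and the targeted gene were checked first. The authors' deposited table listed the cortical neuron genes Slc17a7, Tbr1 and Neurod6 at mean normalized counts of 17440, 798.5 and 2478. Adarb1 had a log2 difference of condition A over condition B of -2.21 there, at a mean normalized count of 4181 (adjusted p = 3.06e-126 in the authors' deposited table). Its conditions are headed only A and B, and no genotype was assigned to them from the Adarb1 level. The exon and editing tables name the genotypes themselves.

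Editing of Cog3 fell in the knockout cortex. In the authors' deposited table, 9.13% of reads were edited in Adar2-/- Gria2R/R cortex and 26.5% in Adar2+/+ Gria2R/R cortex, at position 76119526 of chromosome 14 on mm9 (adjusted p = 5.16e-07). The difference was -17.4 percentage points, and the knockout kept 34.4% of the control level. The site is listed as I/V, an exonic change of 1 amino acid of the Cog3 protein, a lobe A subunit found with the COPI vesicle coat in human cells. A rise was called for 13 of all 143 sites (9.09%). A fall was called for 56 of them (39.2%) and for 19 of the 22 amino acid sites (86.4%), so that a call at the Cog3 site is what most amino acid sites showed. Read coverage at the site is unknown, no interval can be given for either percentage, and the p may cover counting error only.

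Cog3 was among the less edited sites in control cortex and kept a larger share of its editing than most. Of the 19 amino acid sites that fell, it had the 3rd lowest control percentage and the 3rd smallest difference. Ordered by the share of control editing kept in the knockout, it was the 5th highest of the 19. The other 18 kept a median of 10.4% of the control level, between 0% and 86.1%. Their median was 7.38% in the knockout and 69.3% in the control, calculated from the authors' deposited table. These orders describe the listed values, and whether neighbouring sites differ could not be tested without values per library.

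**Figure D1:**
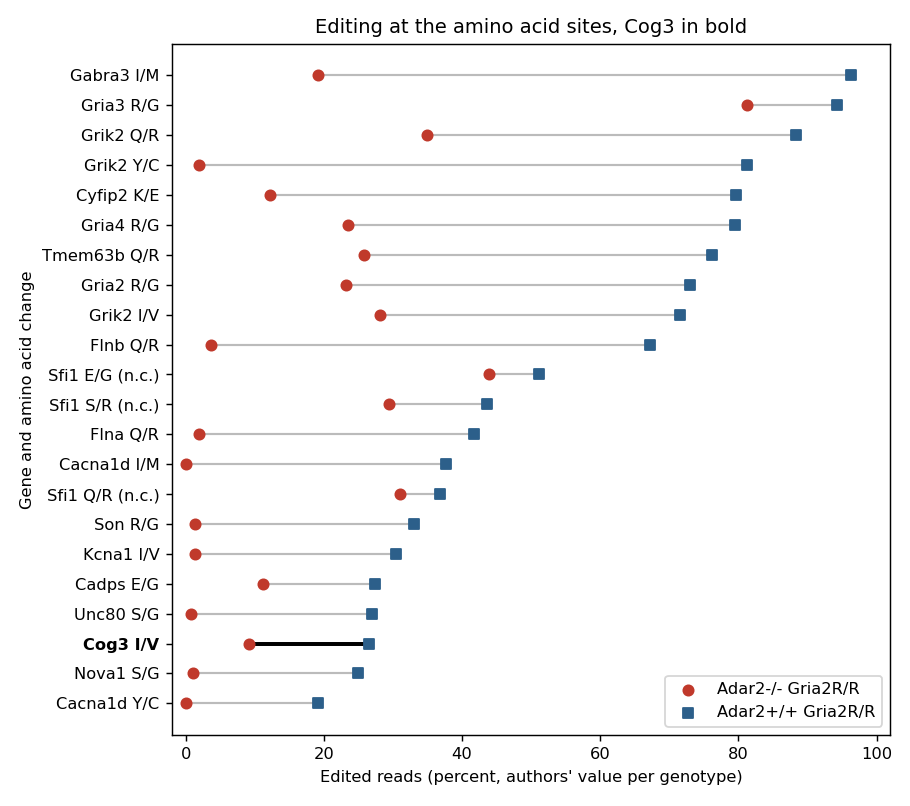
Percent of edited reads (x axis, authors' value per genotype) at the 22 amino acid sites (y axis, ordered by the control), as red circles for Adar2-/- Gria2R/R and blue squares for Adar2+/+ Gria2R/R; n.c. marks sites with an adjusted p of 0.05 or more. The Cog3 site lies at 9.13% in the knockout and 26.5% in the control, close to Cadps and well to the right, in the knockout, of sites with a like control level such as Unc80 and Nova1.

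The site most like Cog3 lay in Cadps, which encodes a protein that primes dense-core vesicles for release. By distance over both percentages, the 3 nearest amino acid sites were Cadps, Nova1 and Unc80. The authors' deposited table gave 11.1% in the knockout and 27.4% in the control for the E/G site of Cadps, which kept 40.7% of its control level. For the S/G site of the splicing factor gene Nova1, the authors' deposited table gave 1.10% in the knockout and 25.0% in the control, or 4.40% kept. The S/G site of Unc80, a subunit gene of the NALCN sodium leak channel, was listed by the authors' deposited table at 0.709% in the knockout and 27.0% in the control, or 2.63% kept. As sites picked by distance, these 3 had nearly the same control level as Cog3, and Nova1 and Unc80 stood lower than Cog3 in the knockout.

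Across a wider range of control levels, 20% to 40%, chosen after the values were seen, 7 other amino acid sites were listed. Of these, 5 were under 2% in the knockout, and the remaining sites were Cadps and the Q/R site of Sfi1, which was not called. Isoleucine-to-valine changes were listed at 3 sites. Beside Cog3, the potassium channel gene Kcna1 had 1.40% in the knockout and 30.4% in the control, and the kainate receptor gene Grik2 had 28.1% in the knockout and 71.5% in the control, in the authors' deposited table. The shares kept at these sites were 34.4% for Cog3, 4.61% for Kcna1 and 39.3% for Grik2, so the same amino acid change went with both small and larger remainders.

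No editing site was listed in the other 7 subunit genes. Whether other sites in them were covered by reads was not analysed here.

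The mRNA levels of the subunits were then compared. None of the 8 genes was called at an adjusted p under 0.05 in the authors' gene comparison, whose columns have the form DESeq writes, and none had an unadjusted p under 0.05. Over all genes 3 were called (0.0197%) and 283 had an unadjusted p under 0.05 (1.86%), so that 0 of 8 lies near this background. Every subunit was listed with an adjusted p of 1 by the authors' deposited table, and their unadjusted p-values lay between 0.507 and 0.993. In whole tissue, fewer cells of a type and less RNA per cell cannot be told apart.

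The largest differences of the set were those of Cog4 and Cog1 in lobe A. Leaving out the sign, 54.4% of all genes had a larger difference than either. The product of Cog4 binds the SNARE syntaxin 5 and the Sec1/Munc18 protein Sly1 in mammalian cells. The authors' deposited table gave Cog4 a mean normalized count of 1928, taken over A and B together, and a log2 difference of A over B of 0.053 (p = 0.610). Cog1, whose product joins the lobes through Cog8 and which is mutated in the hamster cell line ldlB, had a mean count of 1239 and a log2 difference of 0.053 in the authors' deposited table (p = 0.507). As linear differences these came to 3.75% for Cog4 and 3.72% for Cog1.

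The other lobe A genes were slightly lower in condition A, without passing. Cog2, mutated in the hamster cell line ldlC, had a mean count of 1078 and a log2 difference of -0.033 in the authors' deposited table (p = 0.770). The edited gene Cog3 had a mean count of 1681 and a log2 difference of -0.031 in the authors' deposited table (p = 0.681). Its mRNA level thus differed by 2.09% between the conditions, where its editing in the knockout stood at 34.4% of the control level.

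No gene of lobe B passed either. Cog5 and Cog7, whose products bind each other, were listed by the authors' deposited table at mean counts of 1363 and 1538. The authors' deposited table gave a log2 difference of -0.029 for Cog5 (p = 0.830) and one of -0.047 for Cog7 (p = 0.760). For Cog6, whose product binds Golgi SNAREs, the authors' deposited table listed a mean count of 1793 and a log2 difference of 0.020 (p = 0.727). Cog8, the partner of Cog1 between the lobes, had the lowest mean count, 698.6, and a log2 difference of -0.0013 in the authors' deposited table (p = 0.993).

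**Figure D2:**
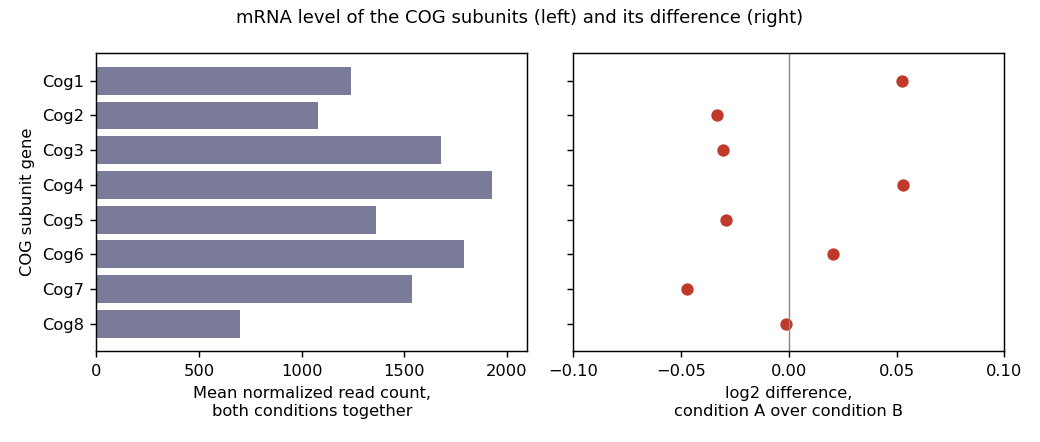
Left, the authors' mean normalized read count over both conditions (bars, x axis) of the 8 COG subunit genes (y axis); right, their log2 difference of condition A over condition B (points), with no error bar since no value per library was listed. Cog4 has the longest bar and Cog8 the shortest (1928 and 698.6), and all points lie between -0.047 and 0.053.

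Taken as a list, 3 of the 8 genes were higher in condition A and 5 lower, with a median log2 difference of -0.015. Over all listed genes 52.9% were higher in A and the median was 0.0063. The median size of the difference, leaving out its sign, was 0.032 for the subunits and 0.060 for all genes. The median was 0.011 for lobe A and -0.015 for lobe B. The subunits had mean counts of 698.6 to 1928, where the median of all listed genes was 624.3.

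Levels between subunits were compared per length. Mean counts were divided by the length of the GENCODE M21 transcript with the longest coding sequence, an annotation on GRCm38 that need not match the one the authors counted on. On this scale Cog4 was highest with a mean count of 704.3 per kb, followed by Cog6 with 563.6, Cog7 with 530.0, Cog5 with 454.7, Cog3 with 398.1, Cog2 with 381.6, Cog1 with 314.9 and Cog8 with 156.1. The highest level was 4.51 times the lowest, that of Cog8, which is uncertain because of its overlap with Pdf, described below. Without Cog8 the levels ran from 704.3 to 314.9 per kb. Which neighbours in this order differ beyond the spread between libraries could not be tested. With the union of all protein-coding exons as the length, Cog4, Cog6 and Cog8 had the same places, and Cog5 moved to the 7th place with 217.2 per kb.

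The level of Cog8 is uncertain. Its exons share 1306 bases with Pdf on the same strand in GENCODE M21, and the authors' exon table joins both genes into 1 entry, so reads there cannot be assigned to either gene alone. Cog5 shares 1514 exonic bases with Hbp1, Cog1 shares 1116 with Fam104a, and Cog4 shares 188 with Sf3b3 and 156 with Gm26816, all on the opposite strand. The library kit keeps strand, per the labels' protocols, and the strand setting of the counting could not be read from the labels or file headers.

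Exon usage was compared over the 162 bins of the 8 genes. A bin value describes the use of a stretch of exon relative to the rest of its gene. At an adjusted p under 0.05, 0 of the 162 bins were called in the authors' exon comparison, where 11 of 149137 bins with a p were called in all (0.00738%). An unadjusted p under 0.05 was found for 2 bins (1.23%), against 1.67% of all bins. Both were in Cog3 and lower in the knockout, a direction with such a p that 0.909% of all bins had. Of the 162 bins, 74 were lower in the knockout and 88 higher, with a median log2 change of knockout over control of 0.0083, and 0.00069 over all bins. Bin values are relative to their own gene, so rises and falls tend to balance within it. A median near 0 therefore says little about these genes. In size, 101 of the 162 (62.3%) were within 0.1 of 0 on the log2 scale, against 65.9% of all bins.

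**Figure D3:**
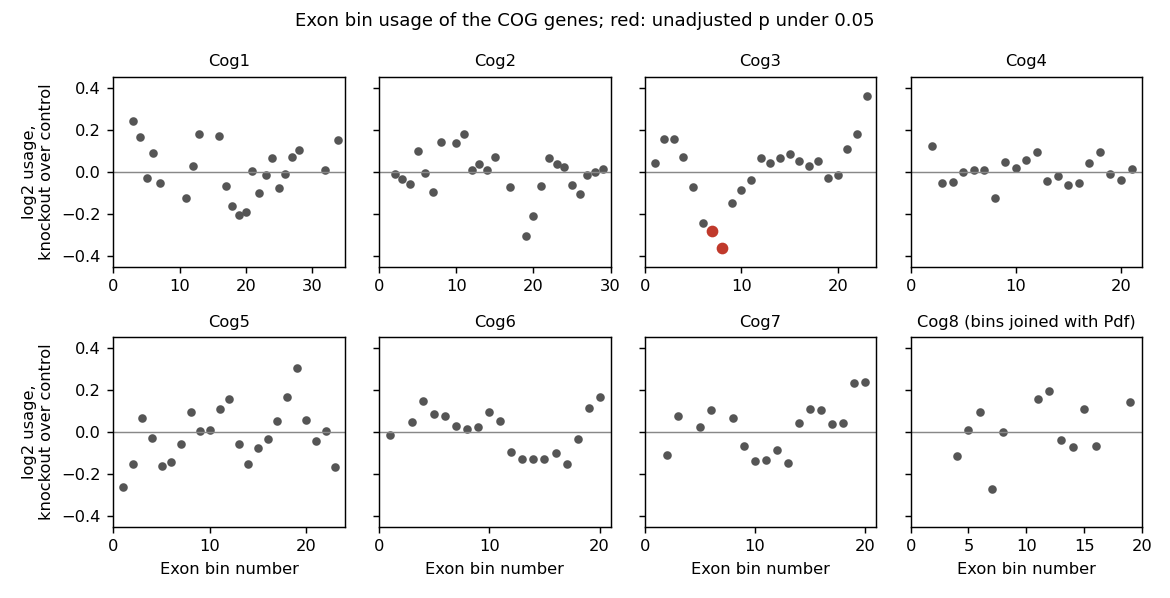
Log2 usage of knockout over control (y axis) for each listed exon bin (points, x axis: bin number) of the 8 COG genes, red where the unadjusted p was under 0.05. All points lie between -0.36 and 0.36, and the red points are E007 and E008 of Cog3.

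The COG bins with the smallest p were neighbours in Cog3. In the authors' deposited table, E008 had a log2 change of -0.36 with p = 0.0112 and E007 one of -0.28 with p = 0.0276, both with an adjusted p of 1. Their mean normalized counts were 72.4 and 97.4 there. Both neighbours pointed the same way, with -0.24 for E006 (p = 0.0838) and -0.15 for E009 (p = 0.286) in the authors' deposited table. Neighbouring bins can share reads, so their common direction is not separate evidence. The highest log2 change of all COG bins was also in Cog3, at E023, with 0.36 (p = 0.123) at a mean count of 23.95 in the authors' deposited table. The lowest and the highest COG bin thus lay in the edited gene, and neither was called.

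The 23 listed bins of Cog3 run without a gap from E001 to E023, and the coding transcript with the longest coding sequence in GENCODE M21 has 23 exons. Bins were paired with exons in the order of the genome, so that on the minus strand E023 is the first exon and E001 the last, of 1710 bases and with the highest mean count, 577.9. The rank correlation of exon length and bin count over the 23 pairs was 0.38 in this order and -0.064 with the order turned round, a description over bins of 1 gene that share libraries and spliced reads. Neither the labels nor the file headers name the annotation that the authors used. Along the transcript, bins E021 to E023 were higher in the knockout and E019 and E020 lower. The 7 bins E012 to E018 were higher by 0.029 to 0.085. The next 7, E005 to E011, were lower by log2 changes between -0.36 and -0.039, and E001 to E004 at the 3′ end were higher by 0.042 to 0.16.

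**Figure D4:**
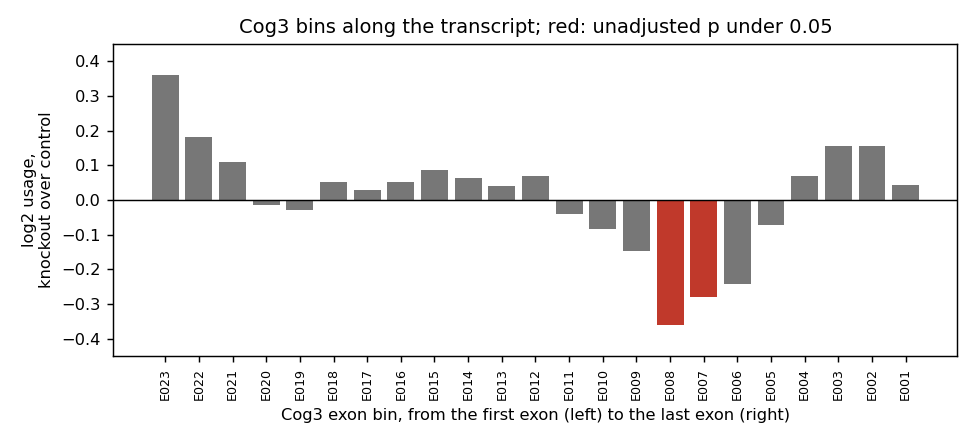
Log2 usage of knockout over control (y axis) for the 23 Cog3 bins (bars, x axis), ordered from the first exon to the last by the pairing with GENCODE M21, red where the unadjusted p was under 0.05. Bars from E011 to E005 point down, with the lowest at E008 (-0.36), and those from E004 to E001 point up.

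Such runs also appeared in other subunits. The longest run of neighbouring listed bins on 1 side was 9 bins in Cog6 (E003 to E011, higher by 0.015 to 0.15), and 7 bins each in Cog2 (E008 to E015), Cog7 (E014 to E020) and Cog3. Neighbouring bins can share reads that cross a junction. No difference of Cog3 from the other subunits was tested.

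The sequences of the exons paired above with both Cog3 bins with an unadjusted p under 0.05 are shown. That pairing is not settled, and the number of such bins lies near the background of all bins. Over the bins of Cog3 together, the Simes p computed from the authors' deposited table was 0.258, with an adjusted p over genes of 1. The sequences come from that GENCODE M21 transcript (GRCm38, minus strand), exon 17 at chr14:75719692-75719812 for E007 and exon 16 at chr14:75722102-75722191 for E008, 5′ to 3′, with the isoleucine codons in the reading frame in capitals.
E007: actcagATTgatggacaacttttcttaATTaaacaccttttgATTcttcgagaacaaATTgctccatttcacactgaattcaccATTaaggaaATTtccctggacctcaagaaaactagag
E008: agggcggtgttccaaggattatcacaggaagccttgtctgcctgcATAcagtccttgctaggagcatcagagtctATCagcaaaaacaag
Isoleucine codons, the kind listed as edited, are common in Cog3: the coding sequence holds 43 in 16 of the 23 exons. Of these, 6 start in E007, the most of any exon, and 2 in E008. Their presence alone does not set these exons apart. The site is listed on mm9 and these exons on GRCm38, and positions were not carried between the builds, so the exon that holds the edited codon was not determined here.

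No bin of the other subunits had an unadjusted p under 0.05. For Cog5, the smallest p in the authors' deposited table was that of E019 (log2 change 0.31, p = 0.0734), and for joined Cog8 and Pdf that of E012 (0.20, p = 0.0788). Cog2 had its smallest p at E019 (-0.31, p = 0.0901) and Cog7 at E020 (0.24, p = 0.0971) in the authors' deposited table. With E006 of Cog3 and both bins above, 7 COG bins (4.32%) had a p under 0.1, against 4.20% of all bins. The smallest p was 0.133 for Cog1 (E020, -0.19), 0.188 for Cog6 (E017, -0.15) and 0.194 for Cog4 (E008, -0.13) in the authors' deposited table. Cog4 was the most even gene, with 18 of 20 bins within 0.1 of 0, where Cog7 had 8 of 17. Cog4 also had the highest median bin count of the subunit genes, 148.9. Cog2 had the lowest, 62.2, with 18 of 25 bins within 0.1 of 0. Whether evenness goes with the bin count was not tested.

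Other genes of Golgi transport were set beside the subunits through 9 lists of 140 genes, of which 138 were in the gene table. None was called in the authors' gene comparison, and 1 had an unadjusted p under 0.05 (0.725%, against 1.86% of all genes). This was Rab36, a small GTPase gene, with a log2 difference of 0.26 at a mean normalized count of 405.5 in the authors' deposited table (p = 0.0316, adjusted p = 1). Of the 138 genes 75 were higher and 63 lower in condition A, with a median of 0.0027.

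The lists cover the machinery that works with the COG complex. The list of SNAREs, which fuse vesicles, also holds Sec1/Munc18 proteins and factors that recycle SNAREs. Of its 21 measured genes, 10 were higher and 11 lower in condition A, with a median of -0.0051. The list of 19 golgins, stacking proteins and related genes, among them long coiled-coil tethers of the Golgi, had 4 higher and 15 lower (median -0.017). The 14 genes of the COPI coat list had 10 higher and 4 lower (median 0.032). Of 14 Golgi Rab GTPases 10 were higher and 4 lower (median 0.012). The list of glycosylation enzymes, the cargo that depends on the complex, also holds sugar and ion transport genes. It had 23 of 39 genes higher and 16 lower (median 0.0076). Among the other tethers, the medians were 0.017 for 5 GARP and EARP genes, 0.010 for 9 exocyst genes, -0.027 for 4 Dsl1 genes and 0.0059 for 13 TRAPP genes. The lists hold no called gene, and their medians were all within 0.04 of 0 on the log2 scale.

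**Figure D5:**
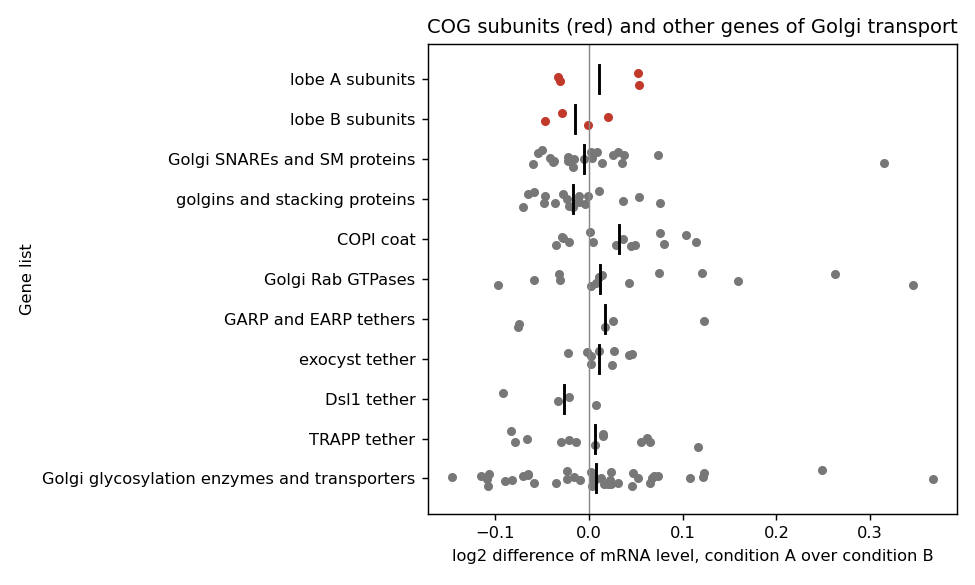
Log2 difference of mRNA level of condition A over condition B (x axis) for each measured gene (points) of the COG lobes (red) and 9 lists of Golgi transport genes (grey), with the list median as a black line. The 8 subunits lie between -0.047 and 0.053, and Rab36 at 0.26 is the grey point with an unadjusted p under 0.05.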

How the data were processed

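RNA was extracted with Trizol and sequenced after ribosomal RNA removal with a stranded total RNA kit, per the labels' protocols. The submitters' processing notes name, without roles, the build mm9, SAMtools 01.19.0, DESeq, HTSeq, Bowtie2 2.02.0 and TopHat2 2.0.6. The deposited gene table holds mean normalized counts (a signal), the ratio of condition B over A with its log2, and p-values, per the file headers. The deposited exon table holds mean counts, log2 ratios of control over Adar2, p-values and a dispersion score, per the file headers. The deposited editing table holds the percent of edited reads per genotype, adjusted p-values and another kind of value, positions on mm9. No source used here names the site caller, the coverage or any pooling. Depth per library is unknown, and 2 columns of the gene table, each a mean of condition A or B, were left out because no genotype is attached to them.

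Signs were turned to A over B and to knockout over control. Gene IDs of bins were matched to symbols for all 8 members. Calls used the authors' adjusted p under 0.05 over their whole tables. Benjamini-Hochberg and Simes steps for the alternatives (Python 3.11.15, SciPy 1.17.1) were tested on simulated data. The exon models and Cog3 sequence came from GENCODE M21. Named were all members, each member's smallest-p bin, bins with p under 0.05, the highest and lowest bin change, pathway genes with p under 0.05 or called in any table, and the 3 amino acid sites nearest to Cog3. The bin holding the site could not be named. The members and lists were chosen with earlier results of these data known. Nothing in the labels says that libraries came from separate mice beyond the number of cortices, so the gene and exon p-values measure at most the spread between these samples. The editing table holds 1 percentage per genotype, and whether its p-values include any spread between libraries is not given in the sources used here.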

Additional observations from a re-analysis of the deposited data

How the results depend on the processing

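No paired analysis was possible because values per library were not analysed here, and the replicate numbers follow accession order. The fall at the Cog3 site (-17.4 points) was called at an adjusted p under 0.01 and 0.001, with a minimum difference of 10 points, and after multiplying the adjusted p by the 143 listed sites (7.38e-05). These settings only reread the same difference and adjusted p, so they say nothing about coverage or the spread between libraries. The counts of 0 called subunit genes, 0 called bins and 0 genes with a changed bin were also 0 with an adjusted p under 0.1, other adjustments over the listed rows, mean counts of at least 100 per gene or 50 per bin, and a Simes p per gene, as far as each applies. The smallest unadjusted p of the authors' comparisons was 0.507 for the subunit genes and 0.0112 for their bins. These settings could therefore hardly have given another count, and they add little. The 2 bins with p under 0.05 became 0 at p under 0.01. The median log2 difference of the subunits, -0.015, was -0.021 after subtracting the median of all genes and -0.0019 as a mean. The median of the bins moved by less than 0.005. With the exon union as length, chosen after the data were seen, 3 of 8 genes had the same place in the order of levels per kb. Unknown coverage limits the editing percentages.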

Other observations

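Among other tethering complexes, the GARP subunit gene Vps52 held the 1 called exon bin among 2247 of the 9 Golgi transport lists (0.0445%, against 0.00738% of all bins). In the authors' deposited table, its bin E024 had a log2 change of knockout over control of -0.72 at a mean normalized count of 64.2 (p = 1.98e-06, adjusted p = 0.0349). By a Simes p over its 24 bins, adjusted over genes, Vps52 stood at 0.120. The 9 lists held 28 of 2247 bins with an unadjusted p under 0.05 (1.25%), against 1.67% of all bins. Of these, 5 were among the 89 bins of GARP and EARP genes (5.62%), the called bin of Vps52 included. This was the highest share of the 9 lists, the others lying between 0% and 3.48%, and it was not tested.

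The exocyst gene Exoc8 was the gene of these lists with editing sites, 3 in a SINE repeat of its 3′ UTR on chromosome 8 of mm9. At position 127417779 the authors' deposited table gave 64.7% in the knockout and 53.0% in the control (adjusted p = 0.00697). At positions 127418084 and 127418090 it listed 76.5% and 48.7% in the knockout, against 67.0% and 38.2% in the control, in the authors' deposited table (adjusted p = 0.0733 and 0.0901). The first of these rose, opposite to the Cog3 site, and the others did not pass. Of all 143 sites, 13 were called higher in the knockout (9.09%).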
